A study of Rattus norvegicus with 4 samples.

Results

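RGS proteins (regulators of G-protein signalling) limit how long a cell responds through G-protein-coupled receptors. The expression of 6 RGS genes, Rgs2, Rgs3, Rgs4, Rgs5, Rgs10 and Rgs16, was examined in rat hepatic stellate cells given an siRNA against endoglin. A probe was taken when the gene name of the array design was one of these 6 names. This gave 7 probes of the 41012 gene probes on the array, 2 for Rgs4 and 1 for each other gene, and 6 of 35536 gene names. Rgs4 was chosen by its measured ratios, as lower with endoglin siRNA than in both control siRNA and untreated cells, so its values are described here without a test. All 6 genes passed the filter on dim probes, and 25513 genes passed it in all.

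A receptor that has bound its ligand loads GTP onto a G-protein alpha subunit, and signalling lasts until that GTP is hydrolysed. The RGS domain binds the active alpha subunit and speeds this hydrolysis, so an RGS protein shortens the response to endothelin, angiotensin, thrombin, lysophospholipids and other vasoactive ligands. In the liver such receptors drive the contraction of stellate cells, the retinoid-storing pericytes of the sinusoid, and Rgs5 is widely used as a marker of pericytes in other organs.

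The cells were rat hepatic stellate cells, either untreated, transfected with an siRNA targeting endoglin, or transfected with a control siRNA. Strain, age, culture time and the siRNA sequences were not stated in the labels. The study used 4 oligonucleotide arrays with 2 colours, and on each array Cy5 carried untreated or endoglin siRNA RNA while Cy3 carried control siRNA RNA, without a dye swap. Each of the 2 test groups had 1 array with RNA of 1 animal and 1 array with RNA pooled from 3 animals. Whether the single animal was also in the pool, and whether arrays shared a control RNA, is not stated. Control siRNA cells were measured only as the other dye, so a ratio to them is tested against 0 and leaves out the control's own spread, and the comparisons of both test groups share these controls. A dye effect of a probe that is the same on all arrays enters both ratios to control siRNA and drops out of the difference between endoglin siRNA and untreated cells, which were both in Cy5. There was 1 slide and 1 scan, so neither could differ between groups.

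Between 61.9% and 93.3% of gene spots per channel were well above background, with the highest shares on the pooled untreated array. The number of arrays, 2 in each group, limits the precision. A ratio is the log2 of Cy5 over Cy3 after normalization, so a negative value means less RNA than in control siRNA cells. The direction follows the dyes in the labels, and the deposited value table gives both untreated arrays the opposite sign. Eng, the gene of endoglin and the target of the siRNA, had log2 ratios of -3.08 (1 animal) and -1.72 (pool) with endoglin siRNA and of -0.36 and -0.42 in untreated cells. Its mean of -2.40 ± 0.26 (SE) with endoglin siRNA had an adjusted p of 0.0051 by limma with Benjamini-Hochberg adjustment over all genes. Of 12 stellate cell markers, 11 were well above background in all 8 channels, Lrat among them, and Gfap in 3. Of the markers of other liver cells, 4 of 14 for hepatocytes (Fgb, Tf, Cyp2e1 and Hnf4a), 3 of 11 for sinusoidal endothelium (Kdr, Fcgr2b and Oit3) and 2 of 7 for cholangiocytes (Sox9 and Spp1) were well above background in all 8 channels. The defining markers Alb, Stab2 and Krt19 were so in 2 of 8 channels each, and Epcam in 0. Kupffer cell and leukocyte markers were present, with 9 of 16 well above background in all 8 channels, Cd68 among them. Ptprc was so in 6 channels, Cd163 in 5, and Cd3e and Cd79b in 2 each.

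Rgs4 and Rgs5 had the largest ratios of the 6 genes, and both lie on chromosome 13. In the RefSeq annotation of assembly GRCr8 they were neighbours, with 0 protein-coding genes between them. Their promoters are shown because these are the members that were lower together. Each sequence is the 250 bases before the annotated start, read 5′ to 3′ on the strand of the gene, from RefSeq on GRCr8. The Rgs4 promoter is chr13:84475885-84476134 on the minus strand and the Rgs5 promoter is chr13:84380827-84381076 on the plus strand. Capitals mark the TATA motif TATAAA.
Rgs4 promoter: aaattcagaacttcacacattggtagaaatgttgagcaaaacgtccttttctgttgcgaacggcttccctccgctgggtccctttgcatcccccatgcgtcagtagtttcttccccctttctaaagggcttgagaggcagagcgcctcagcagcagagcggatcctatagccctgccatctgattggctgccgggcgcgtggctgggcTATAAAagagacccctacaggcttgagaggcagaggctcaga
Rgs5 promoter: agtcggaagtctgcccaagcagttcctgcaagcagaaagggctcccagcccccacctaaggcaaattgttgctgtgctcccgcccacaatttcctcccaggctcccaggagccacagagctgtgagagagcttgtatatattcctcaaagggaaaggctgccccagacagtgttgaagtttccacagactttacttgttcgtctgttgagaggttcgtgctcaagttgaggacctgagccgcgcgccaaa

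Both promoters had a GC content of 54.4%. The motif TATAAA was found 42 bases before the start of Rgs4, and it occurred on either strand in 13.1% of the 27457 promoters of the same length, with none in the Rgs5 window. The other motifs searched on both strands were the CArG box bound by serum response factor (in 1.5% of all promoters), the Smad motifs GTCTAGAC (0.186%) and GGCGCC (9.24%), the short Smad-binding element CAGAC (42.8%), the E-box CACGTG (5.79%), the cAMP response element TGACGTCA (1.7%) and the AP-1 site TGAGTCA (3.98%). Rgs5 matched CAGAC alone, at 4 places counting both strands and left in lower case above, and Rgs4 had no match beside TATAAA. GTCTAGAC does not contain CAGAC on either strand. Promoters were found for 6 of 6 members. Those of Rgs2 and Rgs3 held CAGAC and GGCGCC, Rgs3 also held TATAAA, Rgs16 held CAGAC, and the Rgs10 promoter, with 77.6% GC, held none of these motifs.

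Rgs4 acts on alpha subunits of the Gi and Gq classes, and its protein is short-lived. It was lower in cells given endoglin siRNA than in control siRNA cells on both arrays. For the brighter probe (A_42_P743580) the log2 ratios with endoglin siRNA were -0.91 (1 animal) and -1.35 (pool). In untreated cells they were 0.39 and 0.53. The groups did not overlap, as in 11.6% of all genes in this direction, and the endoglin siRNA ratios lay below 0 and the untreated ratios above 0, as in 3.37% of all genes. With the untreated sign of the deposited table, the Rgs4 ratios in untreated cells were below 0 too, the groups still did not overlap, and the shares were 24.1% and 15.4%. These shares are given as background, since the same values chose Rgs4. The mean with endoglin siRNA was -1.13 (SD 0.31, n = 2), which is 2.19-fold lower than control siRNA. The untreated mean was 0.46 (SD 0.095, n = 2), or 1.38-fold higher than control siRNA. Endoglin siRNA minus untreated was -1.31 for the single animal and -1.87 for the pool, with a mean of -1.59 (SD 0.40, n = 2), a 3.01-fold lower value. In bulk RNA, fewer cells that express a gene and less RNA per cell cannot be told apart.

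**Figure D1:**
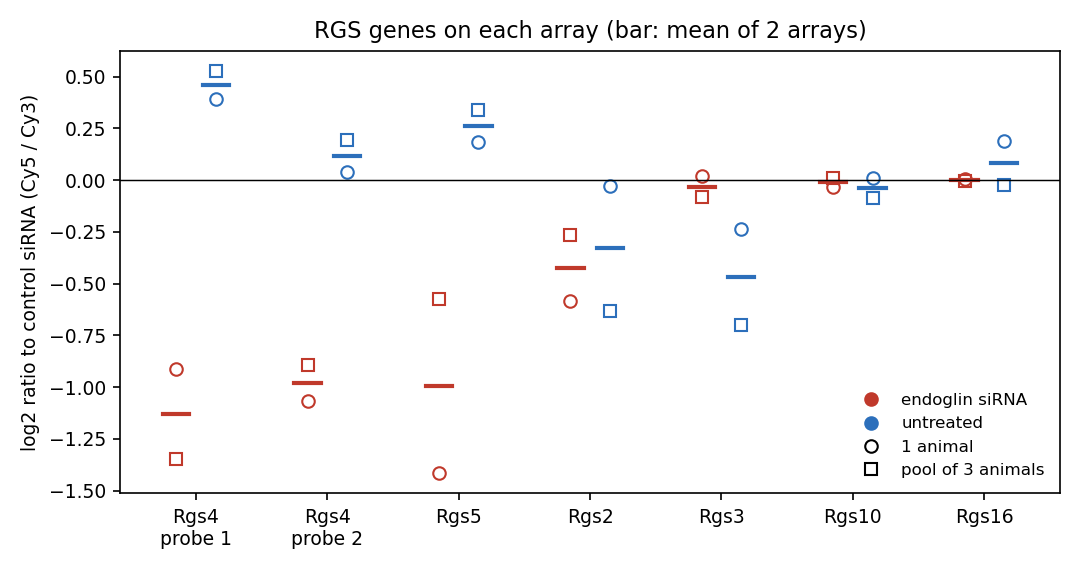
Log2 ratio of Cy5 to Cy3 (control siRNA) for the 7 probes on each of the 4 arrays. Red marks endoglin siRNA and blue untreated cells, circles RNA of 1 animal and squares the pool of 3 animals, and each bar is the mean of 2 arrays. Both Rgs4 probes and Rgs5 lie between -0.58 and -1.42 with endoglin siRNA and between 0.039 and 0.53 in untreated cells, while Rgs10 and Rgs16 lie near 0.

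The second Rgs4 probe (A_44_P512255) gave log2 ratios of -1.07 (1 animal) and -0.89 (pool) with endoglin siRNA. In untreated cells it gave 0.039 and 0.20. Its mean with endoglin siRNA was -0.98 (SD 0.12, n = 2), and its mean in untreated cells was 0.12 (SD 0.11, n = 2). The difference between endoglin siRNA and untreated cells was -1.10 for the single animal and -1.09 for the pool. Both probes therefore gave the same direction with endoglin siRNA, and the second probe differed less between untreated and control siRNA cells.

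The scanner signals of the brighter Rgs4 probe were 82950 (1 animal) and 47850 (pool) with endoglin siRNA, in Cy5. The untreated RNA, in the same dye, gave 137800 and 123900. The control siRNA RNA, in Cy3, gave 42760 and 34530 on the endoglin siRNA arrays and 30770 and 22840 on the untreated arrays. None of these spots was saturated. Before any normalization, Cy5 over Cy3 of the background-subtracted signals was 1.94 and 1.39 on the endoglin siRNA arrays and 4.48 and 5.43 on the untreated arrays. The second probe gave 1.47 and 1.18 on the endoglin siRNA arrays, against 2.87 and 3.97 on the untreated arrays. For both probes, the unnormalized ratios of the endoglin siRNA arrays were below both untreated ratios. The dye balance of each array is still in these ratios. After centring each array on its median log2 ratio, the pooled endoglin siRNA ratio was above the pooled untreated one. It was 0.27 against 0.026 by the brighter probe and 0.105 against -0.39 by the second. The ratio of the single animal stayed below the untreated one by both probes.

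The normalized level of the brighter Rgs4 probe, on the log2 intensity scale, was 15.46 (1 animal) and 14.61 (pool) with endoglin siRNA. In untreated cells it was 16.27 and 15.89. Control siRNA RNA ranged from 15.36 to 16.37 over its 4 channels. The level of the single animal with endoglin siRNA thus lay inside the control range, and Rgs4 was lower in the ratio within each array. The second probe had levels of 11.46 and 10.44 with endoglin siRNA, 12.49 and 11.77 in untreated cells and 11.33 to 12.53 in control siRNA cells. By both probes, the single animal had a higher level of Rgs4 than the pool with endoglin siRNA and in untreated cells.

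**Figure D2:**
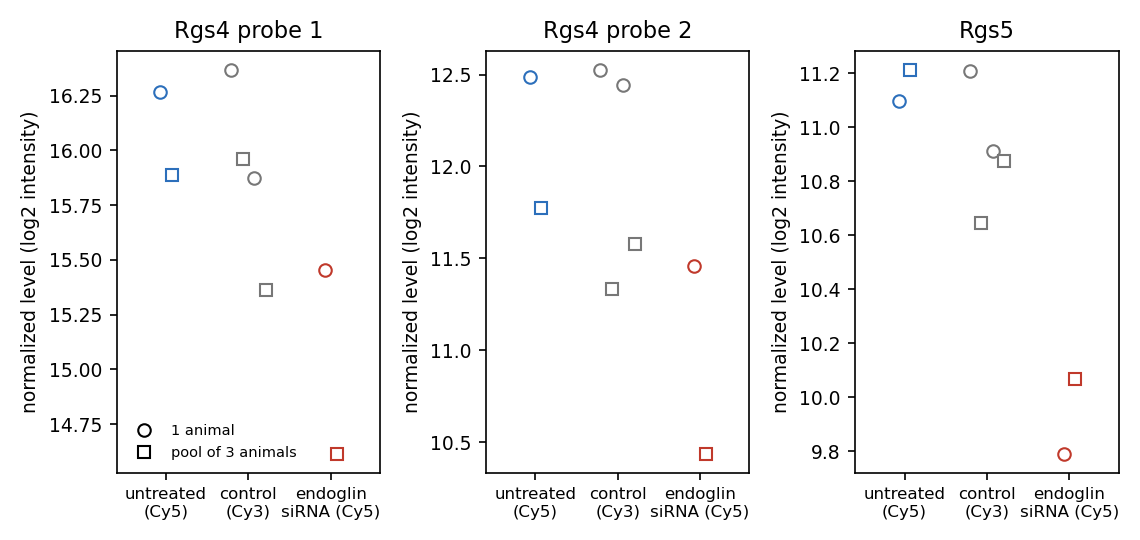
Normalized level (log2 intensity) of both Rgs4 probes and of Rgs5 in each of the 8 channels, with untreated and endoglin siRNA RNA in Cy5 and control siRNA RNA in Cy3. Circles are RNA of 1 animal and squares the pool. The Rgs5 levels with endoglin siRNA (9.79 and 10.07) lie below all others, while the Rgs4 levels of the single animal overlap the control range.

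Of the 25513 genes tested, 22 had a lower mean ratio than Rgs4 with endoglin siRNA against control siRNA, and 8 had a lower difference from untreated cells (538 with the untreated sign of the deposited table, where the Rgs4 difference was -0.67). These ranks and those below are a description and give no support to its fall, since the same ratios chose Rgs4. Among the 264 genes within 0.5 log2 of its brightness, the median ratio with endoglin siRNA was 0.05, and 1 gene lay below Rgs4. That gene was A2m (alpha-2-macroglobulin, a protease inhibitor), named here after its value was seen, at -3.12. With median centring in place of the intensity-dependent loess fit, the Rgs4 ratio with endoglin siRNA turned to 0.24, where the 264 genes had a median of 1.43 and 1 of them again lay below Rgs4. The median of all genes shifted to 0.32 under that setting. Scaling the arrays to 1 spread after loess gave Rgs4 a ratio of -2.43, since the ratios of the pooled endoglin siRNA array were stretched (-4.45 for Rgs4).

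**Figure D3:**
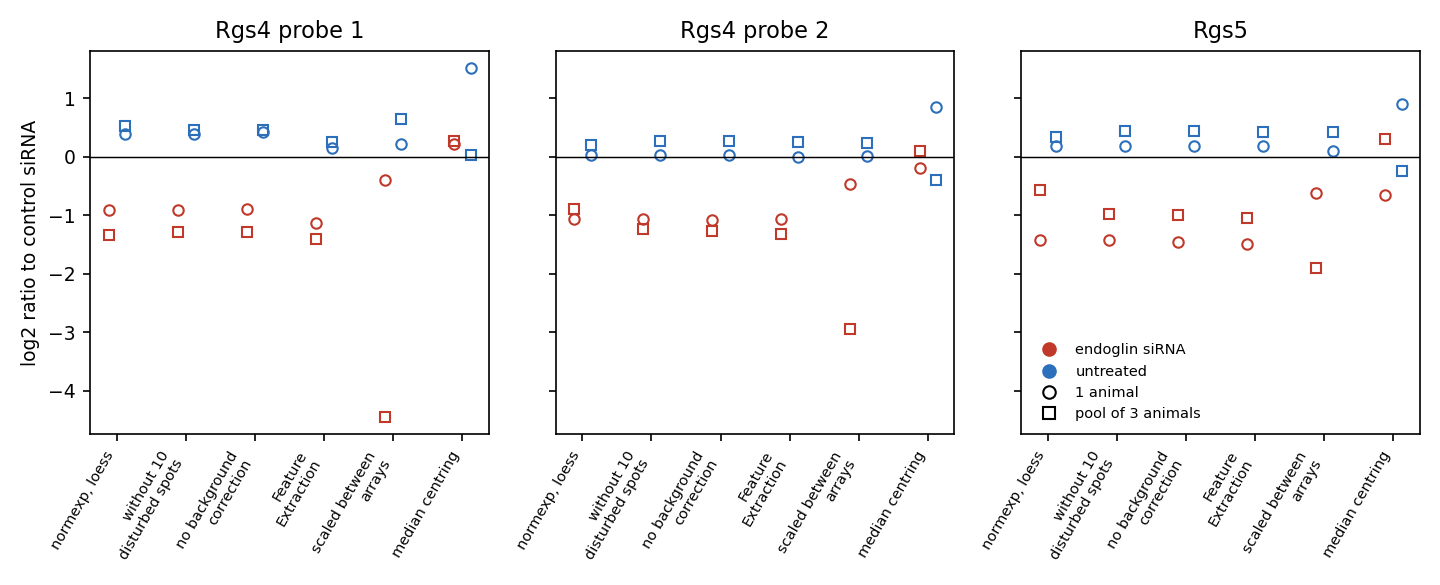
Log2 ratio to control siRNA of both Rgs4 probes and of Rgs5 on each array under 6 ways of processing, with endoglin siRNA in red, untreated in blue, circles for 1 animal and squares for the pool. With the first 5 ways each endoglin siRNA ratio is below both untreated ratios. With median centring the brighter Rgs4 probe gives 0.22 and 0.27 with endoglin siRNA, and the pooled untreated array gives 0.026. The pooled endoglin siRNA ratio is then also above the pooled untreated one for the second Rgs4 probe (0.105 against -0.39) and for Rgs5 (0.31 against -0.24).

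Rgs5 was lower with endoglin siRNA as well. It acts on Gi and Gq alpha subunits like Rgs4. Its log2 ratios were -1.42 (1 animal) and -0.58 (pool) with endoglin siRNA and 0.19 and 0.34 in untreated cells. The groups did not overlap, as in 11.6% of all genes in this direction. The mean with endoglin siRNA was -0.996 (SD 0.59, n = 2), a 1.99-fold lower level than in control siRNA cells. Its SE by limma, which draws on the spread of all 4 arrays and all genes, was 0.17. The adjusted p was 0.0167 by limma with Benjamini-Hochberg adjustment. Rgs5 was thus 1 of the 5 genes tested here that passed in this comparison, where 8.13% of all 25513 genes passed and 2.88% passed as lower. Its normalized level was 9.79 (1 animal) and 10.07 (pool) with endoglin siRNA, below the 10.64 to 11.21 of the 4 control siRNA channels and the 11.10 and 11.21 of untreated cells. Without the pooled endoglin siRNA array the Rgs5 ratio was -1.42, and without the single-animal endoglin siRNA array it was -0.58. The call was lost with the log ratios of Feature Extraction (-1.27, limma adjusted p = 0.0747), with the deposited table (-1.27, 0.0746), with median centring (-0.17, 0.787) and with scaling between arrays (-1.26, 0.433), and 0 of all genes passed by limma under any of these, while 1499 to 7102 had an unadjusted p below 0.05.

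Against untreated cells, Rgs5 differed by -1.60 (1 animal) and -0.91 (pool). The mean was -1.26 ± 0.24 (SE), with an adjusted p of 0.189 by limma with Benjamini-Hochberg adjustment, so it did not pass. None of the 5 tested genes passed in this comparison by limma (Rgs5 and Rgs3 had an unadjusted p below 0.05), where 0.0862% of all genes passed. The pooled arrays held 10 spots whose local background exceeded their signal by more than 100, 6 on the untreated and 4 on the endoglin siRNA array. With the background fit made without them, the pooled Rgs5 ratio with endoglin siRNA was -0.97 and the difference from untreated cells was -1.51 with an adjusted p of 0.00995 by limma, where 0.8% of all genes passed. It also passed without background correction (-1.54, limma adjusted p = 0.0146) and without the pooled endoglin siRNA array (-1.68, limma adjusted p = 0.00107). With a block for single animal against pool, the limma adjusted p was 0.00858. In untreated cells, Rgs5 had a mean ratio of 0.26 ± 0.17 (SE) to control siRNA, with a 95% interval from -0.13 to 0.66 and a limma adjusted p of 0.589.

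Nuf2 and Hsd17b7, near this pair on either side, did not pass. Nuf2, a kinetochore gene beyond Rgs5, had a ratio of 0.16 ± 0.082 (SE, limma adjusted p = 0.296) with endoglin siRNA against control siRNA. Hsd17b7, an enzyme of sterol synthesis on the other side of Rgs4, had -0.035 ± 0.065 (SE, limma adjusted p = 0.808). Ccdc190 and Ddr2, also nearby, were not tested. Rgs2 and Rgs16 are also on chromosome 13, while Rgs3 is on chromosome 5 and Rgs10 on chromosome 1. Rgs2 sits in a run with Rgs13, Rgs1, Rgs21 and Rgs18, and 127 protein-coding genes lie between Rgs16 and Rgs5.

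Rgs2 prefers Gq alpha subunits and counters vasoconstrictor signals in vascular smooth muscle. Its log2 ratios with endoglin siRNA were -0.58 (1 animal) and -0.26 (pool), and in untreated cells they were -0.026 and -0.63. The groups overlapped. The mean with endoglin siRNA was -0.42 ± 0.14 (SE), with a limma adjusted p of 0.119. In untreated cells it was -0.33 ± 0.14 (SE), with a limma adjusted p of 0.367. Both means were below 0, and neither passed. The difference between endoglin siRNA and untreated cells had opposite signs in the RNA sources (-0.56 and 0.37), with a mean of -0.095 and a 95% interval from -0.56 to 0.37. The ratio with endoglin siRNA passed without the 10 disturbed spots (-0.54, limma adjusted p = 0.0322, where 16.3% of all genes passed) and without background correction (-0.55, limma adjusted p = 0.0356).

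Rgs3 acts on Gi and Gq alpha subunits and occurs in long and short forms, which 1 probe cannot separate. Its log2 ratios were 0.020 (1 animal) and -0.083 (pool) with endoglin siRNA. In untreated cells they were -0.24 and -0.70, so the untreated ratios were the lower ones. With the background fit made without the 10 disturbed spots, the pooled ratios were -0.34 with endoglin siRNA and -0.87 in untreated cells. The untreated mean of -0.47 ± 0.11 (SE) had an unadjusted p of 0.00282 and an adjusted p of 0.109 by limma, and it did not pass. No tested gene of the family passed for untreated against control siRNA by limma, where 0.709% of all genes passed, and Rgs3 alone had an unadjusted p below 0.05. With the RNA source as a block, the limma adjusted p of Rgs3 was 0.0162. Endoglin siRNA minus untreated was 0.26 for the single animal and 0.62 for the pool, with a mean of 0.44 ± 0.15 (SE) and a limma adjusted p of 0.478.

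Rgs10, a small RGS protein with a preference for Gi alpha subunits that is abundant in macrophages and microglia, had ratios close to 0 on every array. With endoglin siRNA they were -0.0335 (1 animal) and 0.012 (pool), and in untreated cells 0.0094 and -0.0875. With the background fit made without the 10 disturbed spots, the pooled ratios were -0.16 with endoglin siRNA and -0.033 in untreated cells. The 95% interval of the mean ran from -0.16 to 0.14 with endoglin siRNA and from -0.19 to 0.11 in untreated cells, both against control siRNA. Its normalized level was 10.61 and 10.75 with endoglin siRNA, 10.78 and 10.81 in untreated cells and 10.64 to 10.89 in control siRNA cells. From 10.61 to 10.89 over all 8 channels, this was the narrowest range of the 5 genes that were well above background in every channel.

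Rgs16, a close relative of Rgs4 and Rgs5 that acts on Gi and Gq alpha subunits, gave signals near the background. It was well above background in 1 of 2 endoglin siRNA channels, 1 of 2 untreated channels and 1 of 4 control siRNA channels. Its scanner signals with endoglin siRNA were 84.35 (1 animal) and 53.14 (pool), against local backgrounds of 51 and 54. In untreated cells they were 69.23 and 196.4, against 51 and 51. The ratios were 0.0037 and -0.0031 with endoglin siRNA and 0.19 and -0.022 in untreated cells, and no difference was detectable at this signal.

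The remaining family genes were taken from a list of genes with an RGS domain or an RGS name. Of 15 on the array, 13 were tested and 0 passed by limma in any of the 3 comparisons, where 8.13%, 0.709% and 0.0862% of all genes passed. The unadjusted p was below 0.05 for 0 genes with endoglin siRNA against control siRNA, 2 for untreated against control siRNA and 1 for endoglin siRNA against untreated. With endoglin siRNA the ratios ran from -0.40 to 0.18 for the single animal and from -0.10 to 0.12 for the pool. With the background fit made without the 10 disturbed spots, the largest mean was 0.31, for Rgs6, where it was 0.11 with them. The 0 calls therefore do not show that these genes were unchanged. The list's median ratio with endoglin siRNA was -0.033, beside 0.023 for all genes. Its largest values there were -0.20 for Rgs7bp, a membrane anchor of RGS proteins without an RGS domain of its own, and -0.17 for Rgs12. With the log ratios of Feature Extraction they were larger, at 1.20 for Rgs6, -0.72 for Rgs1, -0.67 for Rgs12 and -0.66 for Rgs17. Under that setting 0 of all genes passed by limma. In untreated cells the largest were Rgs18, which is known from platelets and leukocytes, with 0.79 (1 animal) and 0.057 (pool), and Rgs1, known from lymphocytes, with 0.54 and 0.13. Their means were 0.42 ± 0.15 (SE, limma adjusted p = 0.267) and 0.34 ± 0.099 (SE, limma adjusted p = 0.195). With the log ratios of Feature Extraction these means were 1.09 and 0.99.

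Markers of Kupffer cells and leukocytes were higher in the same untreated arrays. Of 14 tested, 5 passed as higher against control siRNA by limma, where 0.435% of all genes did, and 0 as lower: Lyz2 at 1.70, Aif1 at 1.40, C1qa at 1.16, Cd68 at 0.99 and C1qb at 0.96. With the untreated sign of the deposited table these 5 would be lower, and the counts over all genes would turn from 111 higher and 70 lower to 70 and 111. The median of the list was 0.75, beside 0.0011 for all genes. The summed level of the list ranged from 14.61 to 15.98 (log2) in untreated cells, 13.51 to 15.04 with endoglin siRNA and 13.24 to 15.04 in control siRNA cells. With endoglin siRNA, Cd14 passed as higher against control siRNA (0.55), and C1qa was lower than in untreated cells (-1.09, where 0.051% of all genes were). Other marker lists also held genes that passed as higher in untreated cells against control siRNA, by the sign of the dyes. They were 3 of 12 stellate cell, 1 of 9 endothelial and 1 of 4 cholangiocyte markers, with 0 of 9 for hepatocytes and 0 of 11 for pericytes. The part of Kupffer cells and leukocytes in the values of Rgs1, Rgs18, Rgs4 or Rgs5 was not tested.

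Pericyte and smooth muscle genes were measured beside Rgs4 and Rgs5. Of 11 tested, 2 passed as lower with endoglin siRNA against control siRNA and 1 as higher, where 2.88% and 5.26% of all genes did. Myh11, the smooth muscle myosin heavy chain, had -1.63 ± 0.18 (SE, limma adjusted p = 0.00519), and Cnn1, or calponin, had -1.51 ± 0.21 (SE, limma adjusted p = 0.00979). Ldb3, a Z-disc protein, had 0.69 ± 0.065 (SE, limma adjusted p = 0.0042). By the sign of the dyes, Myh11 and Cnn1 had negative ratios in untreated cells too, from -0.54 to -1.44, unlike Rgs4 and Rgs5. With the untreated sign of the deposited table, Myh11 and Cnn1 would be above 0 there, and Rgs4 and Rgs5 below 0. The summed level of the list overlapped among the groups, at 16.89 to 17.41 with endoglin siRNA, 17.09 to 17.44 in untreated cells and 16.91 to 17.35 in control siRNA cells.

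The other marker lists also held genes that passed with endoglin siRNA against control siRNA, where 5.26% of all genes passed as higher and 2.88% as lower. Among 12 stellate cell markers, 3 were higher (Cygb at 0.76, Col3a1 at 0.72 and Vim at 0.36) and 2 lower (Col1a1 at -0.89 and Des at -0.61). Among 9 endothelial markers, Oit3 (0.88) and Kdr (0.87) were higher, and among 9 hepatocyte markers Cyp2e1 (0.48) was higher. Among 4 cholangiocyte markers, Sox9 (-1.09) and Spp1 (-0.49) were lower. By the sign of the dyes, the stellate cell markers named here went the same way in untreated cells (1 animal and pool). Cygb had 0.79 and 1.21 there, Col3a1 0.70 and 1.43, Vim 0.42 and 0.41, Des -0.53 and -0.99, and Col1a1 -0.25 and -0.14. Oit3 and Kdr were below 0 in untreated cells, and Spp1 was above 0. With the untreated sign of the deposited table, all these untreated values would change sign. The part of these cell types in the values of Rgs4 and Rgs5 was not tested.

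Of the G-protein genes on which RGS proteins act, the share that passed with endoglin siRNA against control siRNA was near that of all genes, 8.13% (5.26% higher and 2.88% lower). Among 13 alpha subunits, 1 was higher and 1 lower by limma. Gnat2, the transducin alpha subunit of cones, had 0.76 ± 0.17 (SE, limma adjusted p = 0.0351), and Gna12, an alpha subunit of the class that acts on the cytoskeleton, had -0.41 ± 0.096 (SE, limma adjusted p = 0.0436). In untreated cells, by the sign of the dyes, Gna12 had -0.36 ± 0.096 (SE, limma adjusted p = 0.164). Gnat2 had 0.17 ± 0.17 there (SE, limma adjusted p = 0.747), and neither passed. Among 15 beta and gamma subunit genes, Gnb2 was lower, with -0.60 ± 0.0655 (SE, limma adjusted p = 0.00519). By the sign of the dyes, Gnb2 was also lower in untreated cells than in control siRNA cells, at -0.47 ± 0.0655 (SE, limma adjusted p = 0.0342).

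Among 36 receptors for vasoactive and lipid ligands, 2 passed as higher and 1 as lower with endoglin siRNA against control siRNA, near the 8.13% of all genes. Agtr1a, the angiotensin II receptor, had 0.96 (1 animal) and 0.41 (pool), with a mean of 0.69 ± 0.12 (SE, limma adjusted p = 0.0187). Adora2a, an adenosine receptor, had 0.41 ± 0.0895 (SE, limma adjusted p = 0.0346). P2ry6, a receptor for UDP, had -0.75 and -1.07, with a mean of -0.91 ± 0.16 (SE, limma adjusted p = 0.0175). By the sign of the dyes, untreated cells (1 animal and pool) had 0.35 and 0.51 for Agtr1a and 0.25 and -0.082 for Adora2a. P2ry6 had 0.60 and -0.12 there, and none of the 36 receptors passed by limma in untreated cells against control siRNA. Among 24 effectors, Rock1, a kinase that promotes actomyosin contraction, was higher at 0.35 ± 0.067 (SE, limma adjusted p = 0.0239). The adenylyl cyclases Adcy6 and Adcy5 were lower, at -0.44 ± 0.062 (SE, limma adjusted p = 0.00988) and -0.34 ± 0.079 (SE, limma adjusted p = 0.0422). Adcy6 was lower in untreated cells as well, by the sign of the dyes, at -0.41 ± 0.062 (SE, limma adjusted p = 0.0416). None of 7 receptor kinases and arrestins passed by limma in any comparison (an unadjusted p was below 0.05 for 0 with endoglin siRNA and 1 in untreated cells, each against control siRNA), and the largest ratios with endoglin siRNA were -0.13 for Arrb2 and -0.087 for Grk6.

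The medians of these 5 lists with endoglin siRNA against control siRNA lay between -0.040 and 0.021, beside 0.023 for all genes. In untreated cells against control siRNA, 2 of their genes passed, Gnb2 and Adcy6. Both were lower by the sign of the dyes, as 0.274% of all genes were. Between endoglin siRNA and untreated cells 0 genes of these lists passed by limma, while 1 alpha subunit, 0 beta and gamma subunits, 6 receptors, 2 effectors and 0 receptor kinases or arrestins had an unadjusted p below 0.05.

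**Figure D4:**
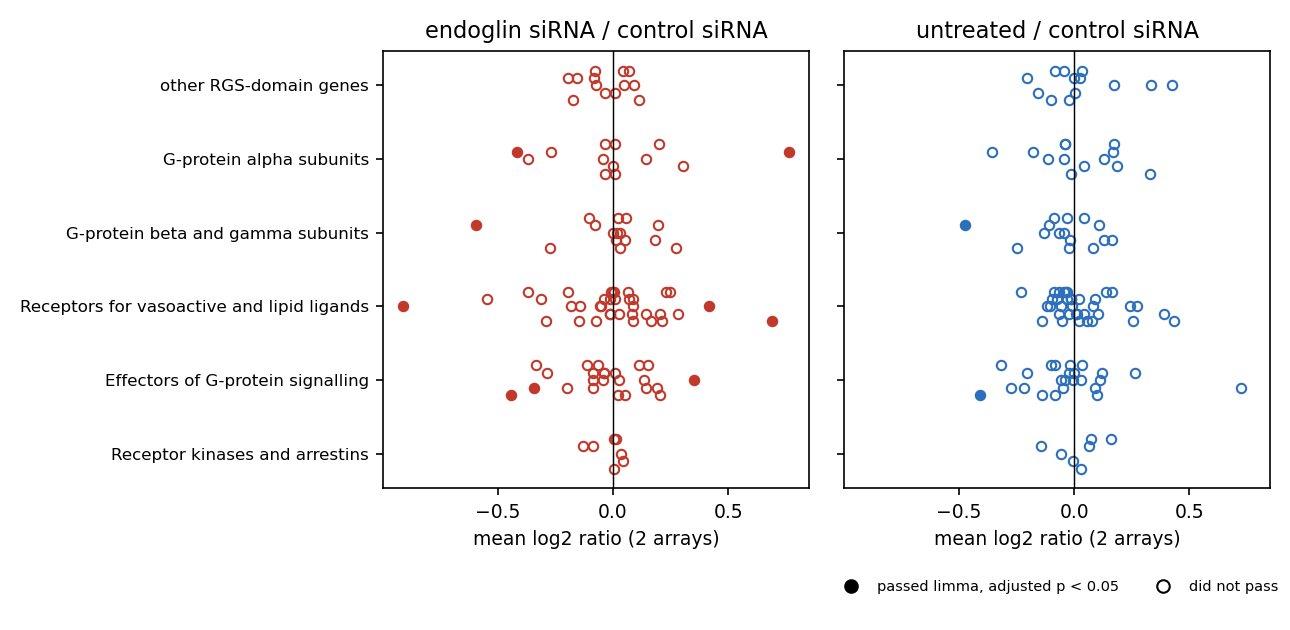
Mean log2 ratio (2 arrays) of each tested gene in 6 lists, for endoglin siRNA (left) and untreated cells (right) against control siRNA. Filled points passed limma at an adjusted p under 0.05 and open points did not. In the left panel the filled points run from P2ry6 at -0.91 to Gnat2 at 0.76, and in the right panel Gnb2 and Adcy6 are filled.

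The genes most like Rgs4 were taken as those with the smallest Euclidean distance to its brighter probe over the 4 log2 ratios, among 12080 tested genes with a symbol. They are a description, since the ratios of Rgs4 chose them. The nearest was the chemokine gene Cxcl12 at a distance of 0.60, with -0.61 (1 animal) and -0.91 (pool) with endoglin siRNA and 0.31 and 0.25 in untreated cells. It was followed by Pcsk6, a proprotein convertase, at 0.73 and by P2ry6 at 0.75. Ltbp2, a matrix protein related to the latent TGF-beta binding proteins, came next at 0.78, and Enpp1, an ectoenzyme that makes pyrophosphate, at 0.79. The second Rgs4 probe was at 0.68, and Rgs5 ranked at 9 with a distance of 0.96. Over these 5 genes the endoglin siRNA ratios ranged from -0.61 to -1.26 and the untreated ratios from -0.12 to 0.60.

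**Figure D5:**
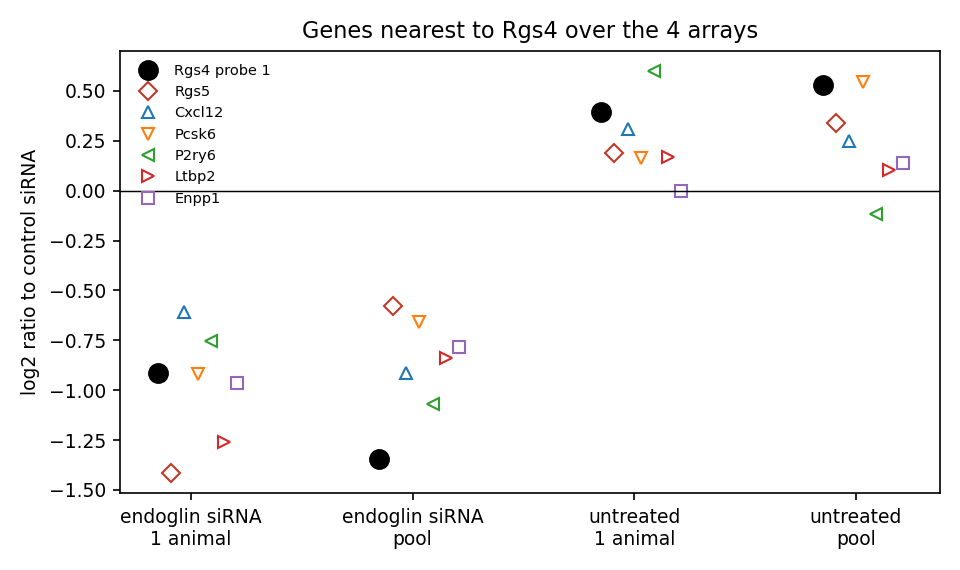
Log2 ratio to control siRNA of the brighter Rgs4 probe, of Rgs5 and of the 5 genes nearest to Rgs4 on each of the 4 arrays. With endoglin siRNA every point lies between -0.58 and -1.42, and Enpp1 (single animal) and P2ry6 (pool) have untreated ratios of -0.0016 and -0.12.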

How the data were processed

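The authors scanned 4 Agilent rat arrays of 2 colours. Spots were quantified by Agilent Feature Extraction, version 9.5.1.1, per the file headers. Mean signal and local median background are deposited as linear intensity. The software's own log ratio is, per the file headers, on a log10 scale with Cy5 in the numerator. The deposited value table also holds log10 ratios, with a median of 0 on each array. Set against the scanner files, its columns correlated at 1 (endoglin siRNA) and at -1 (untreated). Its background correction was not stated.

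Signals were corrected with normexp (offset 50) and normalized by loess within each array, with control spots at weight 0 and flagged spots left out (189 to 289 gene spots per array). Levels per channel come from a further Aquantile step. A probe needed a signal well above background, in either dye, on 2 or more arrays (30021 of 41012), and those with a usable spot on every array (29845) gave 25513 genes, each by its brightest probe. The other Rgs4 probe is reported beside it. Gene names were updated with a RefSeq table of assembly GRCr8, which matched 6591 genes by accession, 3236 by symbol and 2273 by synonym, while 13413 kept the array's name.

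Group means of the log2 ratios went into limma, version 3.58.1, under R 4.3.3 (beside the data.table package, version 1.17.8), with empirical Bayes variances (prior degrees of freedom 5.27, residual degrees of freedom 2) and Benjamini-Hochberg adjustment over all genes at 0.05. All 4 arrays share 1 estimate of the spread, and p-values measure only the spread between these arrays, as the labels do not say whether the single animal is also in the pool. Each SE is limma's and uses this shared estimate, so it is not the SE of 2 arrays alone. The test was tested on simulated data. The members and gene lists were chosen with earlier results of these data known. Named genes were the 6 members, the 5 genes nearest to Rgs4, Eng and genes of the lists. From a list other than markers these were up to 4 passing genes, or its 2 largest ratios where none passed. Beyond this rule, passing marker genes, A2m and genes with large Feature Extraction ratios were named by their values. Other markers were named for their signal above background, and genes near Rgs4 and Rgs5 for their position. The alternatives were other background corrections, normalizations, filters, probe choices, variance models, signs and sets of arrays, and a block for the RNA source. The labels do not say that the arrays of 1 animal share that animal, so the block is an alternative only.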

Additional observations from a re-analysis of the deposited data

Results flagged for a closer look

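Rgs4 and Rgs5 had ratios of opposite sign in the test groups, with both endoglin siRNA arrays below 0 and both untreated arrays above 0. Of all 25513 genes, 861 (3.37%) had this pattern. With the untreated sign of the deposited table, the pattern held for 3938 (15.4%) and not for Rgs4 or Rgs5. Rgs5 in untreated cells did not pass against control siRNA (0.26, limma adjusted p = 0.589). For the brighter Rgs4 probe, endoglin siRNA minus untreated was -1.59, and for the second Rgs4 probe it was -1.10. The Rgs4 difference was not tested, because Rgs4 was chosen for it. For Rgs5 the difference was -1.26 and was tested, with a limma adjusted p of 0.189.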

How the results depend on the processing

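Means are log2 ratios and p-values are limma's. Genes passing with endoglin siRNA against control siRNA numbered 2075, with 4503 without background correction, 4149 with the background fit made without the 10 disturbed spots, 3954 with the RNA source as a replicate block, 882 to 2672 leaving out 1 array, and 0 with Feature Extraction log ratios, median centring, scaling between arrays or the deposited table (unadjusted p below 0.05: 7102, 6178, 1499 and 7099). For untreated against control siRNA the count was 181, with 514, 464 and 1036 in the first 3 of these settings, 360 without the filter on dim probes, 0 to 756 leaving out 1 array (0 without the pooled untreated array, unadjusted 1994), and 0 in the same last 4 (unadjusted 3333, 73, 610 and 3334). For endoglin siRNA against untreated it was 22, with 170, 204 and 267, then 47 without the filter, 2926 with the untreated sign of the deposited table, 0 to 431 leaving out 1 array (0 without the pooled untreated array, unadjusted 1236), and 0 in the last 4 (unadjusted 2776, 259, 360 and 2771).

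Members passing against control siRNA with endoglin siRNA went from 1 to 2 without background correction or without the disturbed spots, and to 0 with Feature Extraction, median centring, scaling or the deposited table (unadjusted 1, 0, 1 and 1). In untreated cells it went from 0 to 1 (Rgs3) under the block. Against untreated cells it went from 0 to 1 (Rgs5) without background correction, without the disturbed spots, under the block and in the range of 0 to 1 leaving out 1 array. The 1-animal minus pool differences of both groups correlated at 0.293 over genes, and the pairing is not stated by the labels. The block changed no other call of a member.

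Rgs4 with endoglin siRNA against control siRNA was -2.43 with scaling and 0.24 with median centring. Untreated against control siRNA, it was 0.21 with Feature Extraction and with the deposited table, 0.77 with median centring and -0.46 with the sign turned. Against untreated cells, it was -0.53 with median centring, -2.86 with scaling and -0.67 with the sign turned. Leaving out 1 array gave -0.91 to -1.35, 0.39 to 0.53 and -1.37 to -1.81 in the 3 comparisons.

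The remaining reversals came with means near 0, with median centring or with the untreated sign turned. With endoglin siRNA against control siRNA, Rgs16 was -0.030 without background correction, -0.025 without the disturbed spots, -0.24 with median centring, -0.0044 with scaling and -0.0031 to 0.0037 leaving out 1 array. Rgs10 was 0.86 with median centring, 0.013 with scaling and -0.0335 to 0.012 leaving out 1 array. With median centring Rgs2 was 0.54 and Rgs3 0.78, and Rgs3 was -0.083 to 0.020 leaving out 1 array.

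For untreated against control siRNA, Rgs16 was -0.067 without background correction, -0.25 with Feature Extraction and with the deposited table, -0.12 with median centring and -0.022 to 0.19 leaving out 1 array. Rgs10 was 0.0155 with Feature Extraction, 0.016 with the deposited table, 0.029 with median centring and -0.0875 to 0.0094 leaving out 1 array. Turning the sign gave 0.33 (Rgs2), 0.47 (Rgs3), -0.26 (Rgs5), 0.039 (Rgs10) and -0.083 (Rgs16).

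Between endoglin siRNA and untreated cells, Rgs10 was -0.087 without background correction, -0.0865 without the disturbed spots, -0.062 with Feature Extraction and with the deposited table, -0.050 with the sign turned and -0.020 to 0.077 leaving out 1 array. Rgs16 was 0.0375 without background correction, 0.25 with Feature Extraction and with the deposited table, 0.083 with the sign turned and -0.19 to 0.022 leaving out 1 array. Rgs2 was 0.74 with median centring and -0.40 to 0.21 leaving out 1 array, and Rgs3 was -0.50 with the sign turned. With the sign turned, Rgs2 was -0.75 (limma adjusted p = 0.0532) and Rgs5 -0.73 (0.0994), and with median centring Rgs5 was -0.50 (0.841). Where an arm kept 1 array, that array was assumed to vary like the others. The cause of these changes was not tested. Signal limits Rgs16, which was near background in most channels.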

Other observations

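Rgs2 and Rgs3 differed more between RNA of 1 animal and RNA of the pool than in any of their ratios to control siRNA. Over the 4 channels of each source, the normalized level of Rgs2 was 12.39 to 13.47 (log2) in the single animal and 10.32 to 10.98 in the pool, a difference of 2.05 between the means. Rgs3 was at 11.35 to 11.59 in the single animal and 9.56 to 10.26 in the pool, a difference of 1.52. For both genes every single-animal channel was above every pool channel, as for 21.8% of all 25513 genes. The differences were larger in size than those of 99.6% (Rgs2) and 98.8% (Rgs3) of genes, and the median size over all genes was 0.17. Rgs4 differed by 0.53 by its brighter probe and by 0.95 by the second, more than 86.4% and 95.6% of genes, and its channels overlapped between the sources. Rgs5 differed by 0.05, Rgs16 by 0.08 and Rgs10 by -0.10. The source of the RNA and the array cannot be told apart here, and no test was made.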
